A study of Drosophila melanogaster with 48 samples.

Results

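RNA bound to ribosomes in fly astrocytes was compared between the early subjective day and the middle of the subjective night. Hours were taken from the sample titles and count from the start of constant darkness (DD). The comparison set the 4 libraries collected at 4 h and 28 h in DD, called day here, against the 4 collected at 16 h and 40 h, called night, and so used 8 of the 24 libraries (16 of the 48 deposited data sets). All flies in both groups carried the same transgenes. The driver eaat1-Gal4 expressed UAS-EGFP-L10a, a tagged protein of the large ribosomal subunit, and elav-Gal80 held Gal4 in check in neurons. Flies were first kept in light-dark cycles and then frozen in DD, and RNA was recovered from pooled heads by translating ribosome affinity purification (TRAP). Each group held 2 time points, 1 from each day in DD, in 2 biological replicates from independent crosses. The age and sex of the flies whose heads were used are not given in the sources used here.

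The fly clock is a loop of transcription and repression. CLK and CYC switch on per and tim, whose proteins accumulate at night and block CLK and CYC, and they also switch on vri and Pdp1, whose proteins repress and activate Clk. CRY is the blue-light receptor that lets light reach the loop. Glia carry this loop too, and in astrocytes it sits beside the work of clearing transmitters and handling lipids and foreign compounds.

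The day libraries held between 6371034 and 37267216 counts on genes and the night libraries between 10564152 and 24235835. Levels below are CPM, read counts relative to the library total after TMM scaling over the 8 libraries. Calls required an adjusted p below 0.05 in edgeR's quasi-likelihood test, with biological replicate as a block and Benjamini-Hochberg adjustment over all 9392 genes with a mean of at least 20 counts. Differences are night minus day on the log2 scale, so positive values are higher at night. Some libraries stood apart from the rest. In the 28 h library of replicate 2 the 10 genes of highest count held 49.6% of counts, against 9.20% to 13.7% in the other 7. In replicate 1 the 16 h library carries the title spelling otherwise used in replicate 2. The 28 h library of replicate 1 rests on its second data set, because its first holds 91 counts. Only 18.9% of the tested genes could be paired with a symbol, mostly through tables that the study ordered by rhythm, and 25.6% of those 1778 genes had an unadjusted p under 0.05 in this comparison, against 11.2% of all genes. Counts among named genes are therefore to be read against 25.6%.

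Of the astrocyte markers, e, which encodes the β-alanyl conjugating enzyme Ebony, and Gabat, the GABA transaminase, could be measured, and the other 6 of the list were not analysed here. Together e and Gabat came to 130 to 182 CPM in the day libraries and 110 to 144 CPM in the night libraries, scaled over all 24 libraries. The 4 photoreceptor genes tested (Arr1, inaD, Rh5 and Rh6) summed to 1170 to 1810 CPM by day and 962 to 1470 CPM at night, so RNA of the eye was present in every library of both groups. The hemocyte markers NimC1 and Sr-CI stayed between 4.47 and 9.73 CPM. Transcripts of gut digestive enzymes (7 of 47 on a list written after the data were seen) summed to 413 and 421 CPM by day in replicate 1 and 300 and 316 CPM in replicate 2. At night they summed to 486 and 559 CPM in replicate 1 and 406 and 458 CPM in replicate 2, so they were higher at night within each replicate, and their part in the results was not tested. No neuron, fat body or muscle marker of the lists was paired with an identifier, so these cell types were not assessed.

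Across the 9392 genes, 2 passed the threshold (0.0213%), 1 in each direction. The clock gene per was 3.85-fold higher at night, and CG42329, a protein-coding gene with no role stated here, was 15.5-fold higher by day. At an unadjusted p under 0.05 there were 1048 genes (11.2%), of which 642 (6.84%) were higher at night and 406 (4.32%) by day, and that split, 61.3% at night, turned to 96.4% with scaling to library totals and to 36.7% with quantile normalization and limma. Every night library lay above every day library for 175 genes (1.86%), and every day library lay above every night library for 246 (2.62%). Of the 1778 genes with a symbol, 99 had every night library above every day library and 158 had the reverse. Groups without overlap thus made up 14.45% of named genes, against 4.48% of all genes. Named genes described below as without overlap are to be read against 14.45%. Because each group pools RNA from whole heads, fewer cells of a type and less RNA per cell cannot be told apart.

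**Figure D1:**
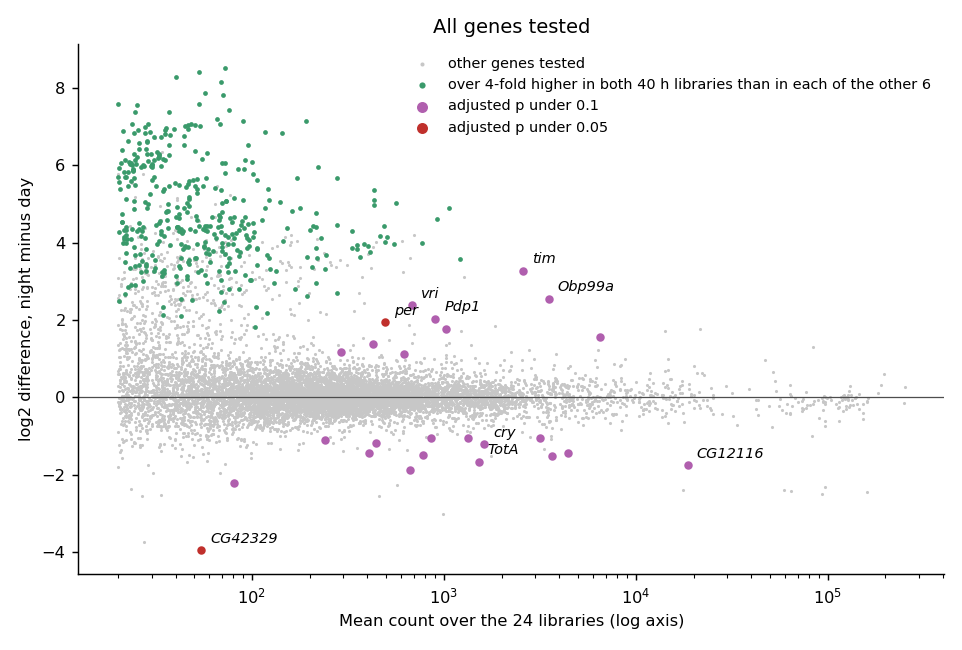
Difference between night and day for the 9392 genes tested (vertical axis, log2, night minus day) against their mean count over 24 libraries (horizontal log axis). The 2 called genes are red, the others with an adjusted p under 0.1 are purple, and green points are the 385 genes over 4-fold higher in both 40 h libraries than in each of the other 6.

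Of 6 clock loop genes tested, 4 were higher at night and 1 by day at an unadjusted p under 0.05, and only per was called. By day per stood at 8.15 and 9.76 CPM in replicate 1 (4 h and 28 h) and at 9.52 and 13.1 CPM in replicate 2. At night it stood at 47.7 and 41.6 CPM in replicate 1 (16 h and 40 h) and at 34.1 and 32 CPM in replicate 2. The highest day library was thus well below the lowest night library, and the log2 difference was 1.95 ± 0.21 (SE, n = 4 libraries per group, edgeR adjusted p = 0.0204). The gene lies on chromosome X from 2685580 to 2692780 of Release 6, and its span overlaps that of dyw.

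The partner of per, tim, had the largest swing of the loop genes tested. Its day levels were 11.5 and 39.9 CPM in replicate 1 and 12.5 and 57.2 CPM in replicate 2. Its night levels were 315 and 246 CPM in replicate 1 and 320 and 267 CPM in replicate 2. The groups were far apart, a log2 difference of 3.28 ± 0.49 (SE, edgeR adjusted p = 0.0763). On the first day in DD the log2 difference of tim was 4.71, and on the second it was 2.42. The edgeR test of that difference between the days gave an adjusted p of 0.0855.

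The repressor gene vri, a bZIP factor that CLK drives, was measured at 6.14, 9.07, 11.3 and 21.0 CPM by day. At night it was measured at 38.2, 79.8, 73.5 and 38.2 CPM (16 h and 40 h of replicate 1, then of replicate 2). The night libraries were all higher, and the log2 difference was 2.38 ± 0.37 (SE, edgeR adjusted p = 0.0763). Pdp1, whose product activates Clk, was at 13.8 and 9.07 CPM by day in replicate 1 and at 20.5 and 44.7 CPM in replicate 2. Its night values were 78.2, 58.9, 112 and 68.0 CPM, all above the day values (log2 difference 2.03 ± 0.34, SE, edgeR adjusted p = 0.0861).

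The photoreceptor gene cry went the other way. Its day levels were 108 and 100.2 CPM in replicate 1 and 85.8 and 80.8 CPM in replicate 2, and its night levels were 30.4, 50.2, 35.5 and 45.5 CPM. Day and night did not overlap, with a log2 difference of -1.21 ± 0.20 (SE, edgeR adjusted p = 0.0879). The activator gene Clk showed no such order. Its day levels ran from 10.5 to 21.5 CPM and its night levels from 4.82 to 19.3 CPM, and the difference of -0.48 ± 0.41 (SE) was of the size of its error (edgeR adjusted p = 0.669). The remaining loop genes of the list, cyc and cwo, were not analysed here.

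Over all 12 time points, scaled over 24 libraries, per was lowest at 24 h (mean 8.79 CPM) and highest at 16 h (47.8 CPM). The mean of tim was lowest at 4 h (14.2 CPM) and highest at 16 h (371 CPM), and that of vri was lowest at 0 h (9.76 CPM) and highest at 40 h (69.4 CPM). The highest means of these 3 genes thus fell at a compared night hour, and of the lowest means that of tim fell at a compared day hour. For cry the lowest mean was at 16 h (38.5 CPM), whereas the highest was at 12 h (125 CPM), only 4 h earlier.

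**Figure D2:**
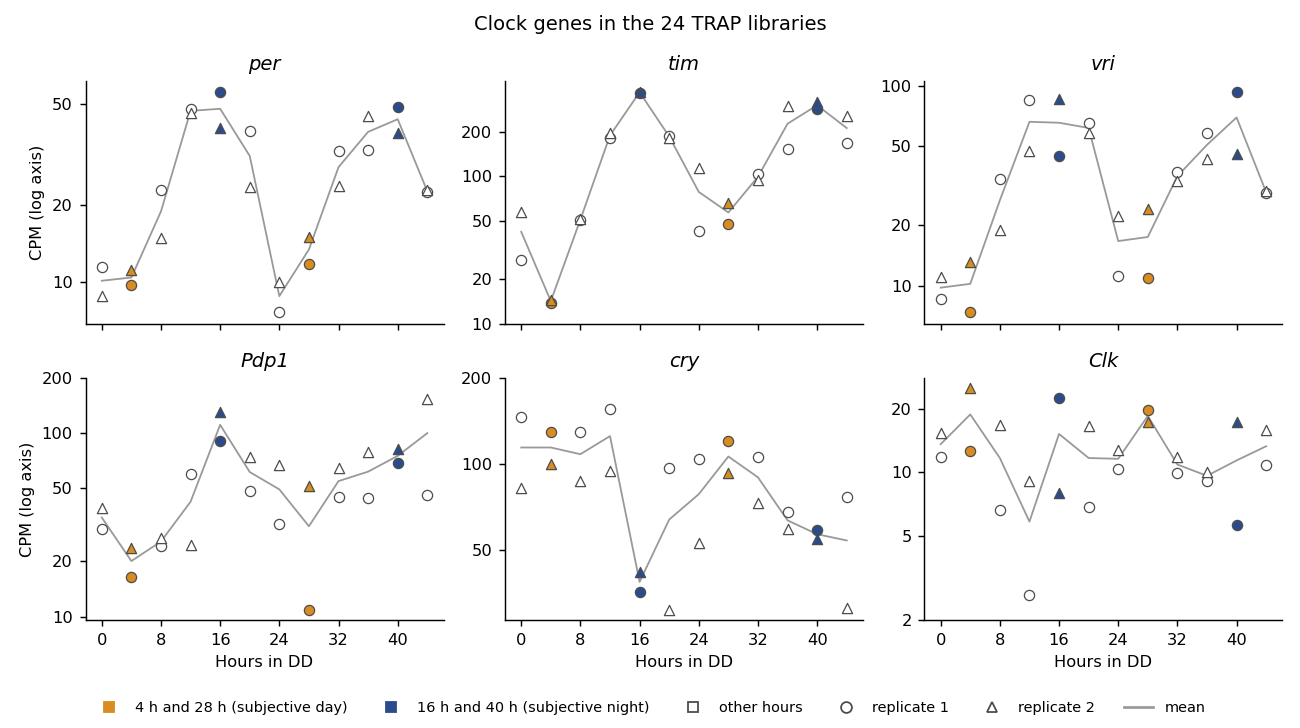
Level of 6 clock genes (vertical log axis, CPM scaled over 24 libraries) against hours in DD, with circles for replicate 1, triangles for replicate 2, a line through the means, orange for the day libraries compared and blue for the night libraries compared. All 4 blue points lie above all 4 orange points for per, tim, vri and Pdp1, and below them for cry, while for Clk the colours overlap.

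CG42329 was low by day and fell further at night. Its day libraries held 40, 71, 274 and 36 reads (4 h and 28 h of replicate 1, then of replicate 2), or 4.88 to 7.86 CPM. Its night libraries held 6, 3, 4 and 16 reads (16 h and 40 h of replicate 1, then of replicate 2), or 0.135 to 0.931 CPM. The log2 difference was -3.95 ± 0.47 (SE, edgeR adjusted p = 0.0247), and it was -3.83 on the first day and -3.68 on the second. The gene lies on chromosome 2L from 1219293 to 1229802 of Release 6 with no other annotated gene across it. In the 16 libraries not compared it held between 6 and 169 reads.

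Both calls depended on single libraries, while the differences kept their size. The call of per was lost without either 4 h library, the 28 h library of replicate 1 or the 16 h library of replicate 2, with edgeR adjusted p of 0.0761 to 0.239 and log2 differences of 1.82 to 1.99. That of CG42329 was lost without any of these 4, the 16 h library of replicate 1 or the 28 h library of replicate 2, with edgeR adjusted p of 0.0605 to 0.239 and log2 differences of -4.11 to -3.83. With limma on quantile-normalized counts both calls were lost (adjusted p = 0.215 and 0.28), as they were with data sets 1 and 3 alone (edgeR adjusted p = 0.0992 and 0.28). Without the block for biological replicate, per was still called and CG42329 was not (adjusted p = 0.0802, edgeR).

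A wider circle of genes came close to the threshold. At an adjusted p under 0.1 there were 10 genes higher at night (0.106% of those tested) and 15 higher by day (0.16%). All 25 had non-overlapping groups, which mostly follows from choosing them by p in these same 8 libraries. None but per and CG42329 passed, so the others are given as values. Among the night genes, Cyp4d21 encodes a cytochrome P450 of the family that hydroxylates fatty acids. Its day levels were 14.5, 16.6, 8.51 and 14.0 CPM and its night levels 39.4, 31.3, 29.5 and 35.7 CPM, a log2 difference of 1.38 ± 0.21 (SE). Sid, a stress-induced DNase, was at 9.01 to 11.5 CPM by day and at 19.5 to 25.7 CPM at night (log2 difference 1.17 ± 0.18, SE).

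Obp99a, an odorant-binding protein of the head, had the next largest difference after tim among these 10 genes. It stood at 57.4, 111, 34.5 and 12.0 CPM by day and at 295, 346, 309 and 127 CPM at night, so the 2 groups nearly met between the 28 h library of replicate 1 and the 40 h library of replicate 2. CG6409 was at 129 to 282 CPM by day and 460 to 637 CPM at night. The α-glucosidase gene tobi, which brain insulin-producing cells regulate, was at 6.55 to 23.4 CPM by day and 39.3 to 68.8 CPM at night. The gene r encodes the enzyme that starts pyrimidine synthesis, and it was at 10.9 to 18.01 CPM by day and 24.2 to 40.4 CPM at night.

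The next night genes by p among genes with a symbol were hll, CG4757, Nmdmc, Cyp18a1 and scpr-C, with adjusted p of 0.129 to 0.196 (edgeR). Nmdmc, a folate enzyme of mitochondria, was 24.5 to 46.7 CPM by day and 67.5 to 132 CPM at night, and its log2 difference was 2.00 on the first day and 0.69 on the second. Cyp18a1, the P450 that inactivates ecdysone, was the only one of the 5 whose groups overlapped. For scpr-C the levels were low in every library, at most 4.05 CPM.

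On the day side, 3 of the 15 genes encode enzymes that process foreign compounds. GstE9, a glutathione S-transferase, was at 367 and 369 CPM by day in replicate 1 and at 212 and 207 CPM in replicate 2. At night it was at 83.3, 144, 85.9 and 98.7 CPM, a log2 difference of -1.44 ± 0.22 (SE, edgeR adjusted p = 0.0763). Ugt35B1, which attaches sugars to small lipophilic molecules, was at 32.7 to 73.6 CPM by day and 9.74 to 20.9 CPM at night (-1.89 ± 0.31, SE, edgeR adjusted p = 0.0858). Cyp6a17, a P450 known for its part in temperature preference, was at 53.7 to 73.5 CPM by day and 25.6 to 35.6 CPM at night. Day levels were above night levels in all 3 genes without overlap.

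CG12116 has no role stated here. Its day levels were 1991, 1626, 1258 and 759 CPM and its night levels 412, 507, 235 and 464 CPM, with the lowest day value in the 28 h library of replicate 2 (log2 difference -1.75 ± 0.29, SE). Invadolysin, a metalloprotease, was at 26.1 to 33.2 CPM by day and 10.6 to 14.2 CPM at night, and its differences were nearly the same on both days, at -1.23 and -1.16. Root, the rootletin of sensory cilia, was at 182 to 272 CPM by day and 42.8 to 114 CPM at night. It is known from sensory neurons rather than glia.

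The other day genes were smaller or less well known. Eglp4, a channel of the aquaporin family, was at 114 to 244 CPM by day and 67.7 to 111 CPM at night, the closest approach of the 2 groups. Swip-1, a calcium-binding partner of actin, was at 3.26 to 9.42 CPM by day and 0.910 to 1.67 CPM at night. The log2 differences of CG9377, CG3625 and CG8539 lay between -1.45 and -1.06.

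**Figure D3:**
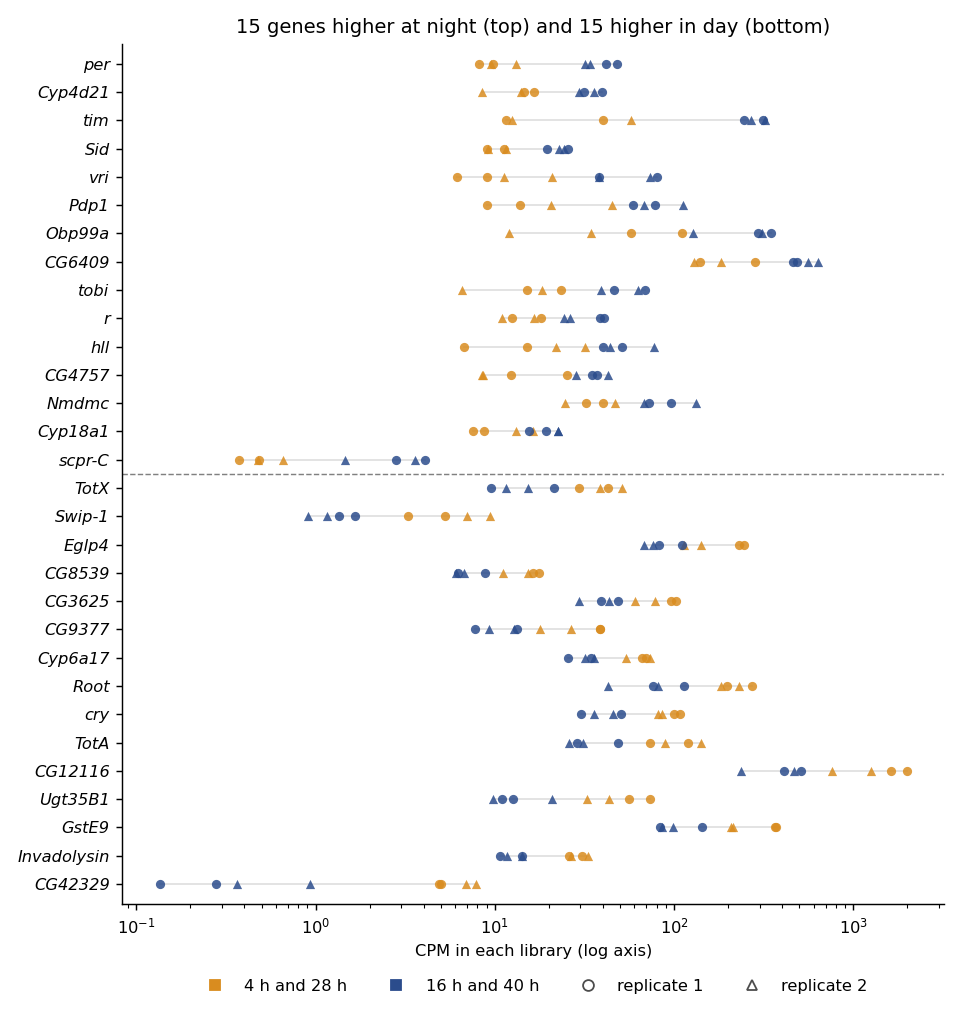
Level of the 15 named genes of smallest p that were higher at night and the 15 that were higher by day (rows) in each of the 8 libraries (horizontal log axis, CPM). Orange marks 4 h and 28 h, blue marks 16 h and 40 h, and circles and triangles mark replicates 1 and 2. Colours separate in each row except Cyp18a1.

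Whether these differences ran the same way at other hours could be read from the 16 libraries left out of the comparison. There the 0, 8, 24 and 32 h libraries were set against those of 12, 20, 36 and 44 h, each 4 h away from a compared hour. No gene was called by edgeR (0%) and 31 by DESeq2, and 566 genes had an unadjusted p under 0.05 in edgeR (6.03%). All 10 night genes with an adjusted p under 0.1 were again higher at the later hours, 8 of them with an unadjusted p under 0.05, and 14 of the 15 day genes were again higher at the earlier hours, 7 of them with such a p. Over all genes 54.8% kept their direction and 4.23% did so with an unadjusted p under 0.05. Of the 642 genes higher at night at an unadjusted p under 0.05, 58.7% kept their direction, 5.92% with such a p at the other hours. Of the 406 higher by day, 74.4% kept it, 15.3% with such a p.

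In these libraries tim had a log2 difference of 1.57 ± 0.25 (SE, edgeR adjusted p = 0.0877), per one of 1.07 ± 0.30 (SE, edgeR adjusted p = 0.544), and r one of 1.03 ± 0.24, nearly its size in the compared hours. Sid had 0.18 ± 0.27, tobi 0.51 ± 0.52, Root -0.207 ± 0.212, CG3625 -0.11 ± 0.20 and Cyp6a17 0.04 ± 0.14, so none of these differences exceeded its error. For CG42329 the difference was -0.93 ± 0.45 (SE). Turning the whole design by 4 h gave 1 call with 0 h and 24 h against 12 h and 36 h (0.0106%), which was per (edgeR adjusted p = 0.0433), and none with 8 h and 32 h against 20 h and 44 h (0%, with 389 genes at an unadjusted p under 0.05).

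**Figure D4:**
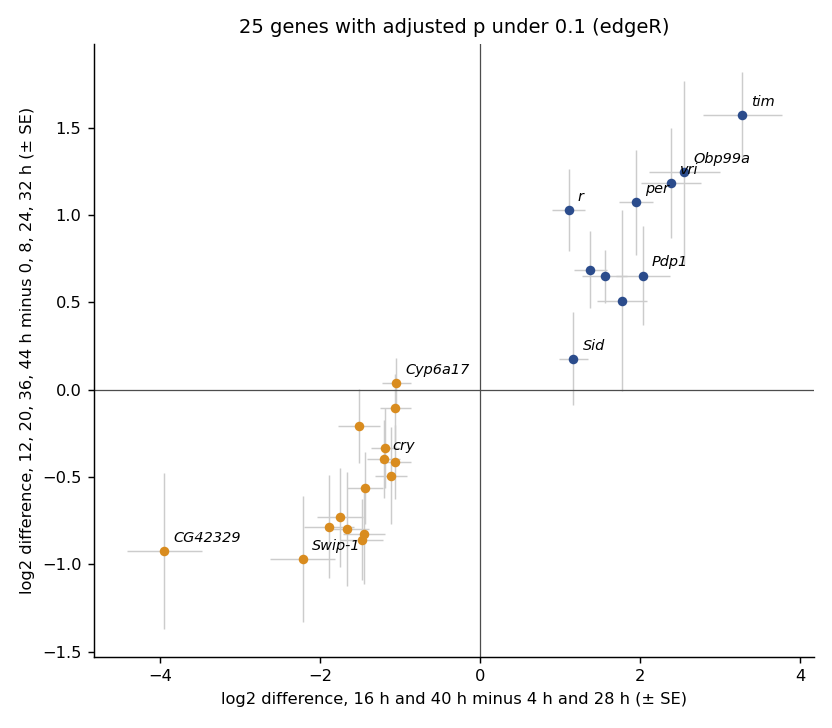
Night-minus-day difference in the compared libraries (horizontal axis, log2) against that in the 16 libraries of other hours (vertical axis, log2) for the 25 genes with an adjusted p under 0.1, with bars of 1 SE. Blue points, higher at night, all lie above 0 on the vertical axis, and orange points lie below it apart from Cyp6a17 at 0.04.

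Of 8 Turandot genes, which encode secreted peptides made after infection and heat, only 3 could be tested. All 3 were higher by day, each with an unadjusted p under 0.05. TotA was at 120, 73.1, 89.3 and 141 CPM by day and 28.9, 48.6, 31.0 and 26.1 CPM at night (log2 difference -1.66 ± 0.27, SE, edgeR adjusted p = 0.0858). TotX was at 29.6 to 51.0 CPM by day and 9.56 to 21.3 CPM at night (-1.48 ± 0.27, SE), and TotC had a log2 difference of -2.28 ± 0.47 with overlapping groups. The median of the 3 was -1.66, against 0.0587 over all genes, and all 3 stayed negative under each of the 4 scalings.

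Bomanins are short peptides released under Toll signalling. Of the 5 Bomanin and Daisho genes tested, 3 were higher at night with an unadjusted p under 0.05 and none by day, with a median of 0.80, and 1 of the 5 turned negative with quantile normalization. BomS3 averaged 1276 CPM by day and 2471 CPM at night (0.96 ± 0.27, SE, edgeR adjusted p = 0.270), BomS5 had 0.81 ± 0.25 and BomBc3 0.80 ± 0.32, each with overlapping groups. The antimicrobial peptide gene Mtk spanned 92.3 to 794 CPM by day and 685 to 2773 CPM at night (1.77 ± 0.59, SE, edgeR adjusted p = 0.374).

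The 10 Toll pathway genes tested showed no common direction, with 5 positive and 5 negative differences, and 8 and 2 with scaling to library totals. Spn27A, an inhibitor of the melanization protease cascade, and SPE, the protease that activates the Toll ligand, were higher at night, by 0.66 ± 0.16 and 0.51 ± 0.19. Dif, a transcription factor of the pathway, and modSP, a protease at its start, were higher by day, by log2 differences of -0.67 ± 0.19 and -0.60 ± 0.20. These 4 of 10 genes had an unadjusted p under 0.05 and none was called. With scaling to library totals Dif and modSP, at -0.39 and -0.31, lost such a p, while 2 genes of the list had one on the night side. PGRP-LC, the receptor of the IMD pathway, averaged 45.3 CPM by day and 62.3 CPM at night, without overlap (0.47 ± 0.17, SE, edgeR adjusted p = 0.394).

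Of 28 cytochrome P450 genes tested, 8 were higher by day and 4 at night at an unadjusted p under 0.05, and none was called. Besides Cyp6a17, the day genes were Cyp305a1 (26.3 CPM by day, 9.53 CPM at night), Cyp4p1, Cyp4aa1, Cyp6t1, Cyp6a9, Cyp4ac1 and Cyp6a22, with log2 differences from -1.44 to -0.55. Besides Cyp4d21 and Cyp18a1, the night genes were Cyp12d1-p (0.88 ± 0.22) and Cyp309a1 (0.70 ± 0.24). Cyp12d1-p has a near-identical neighbour in the genome, so its counts are uncertain. The family thus held members on both sides, and its median of -0.20 turned to 0.09 when scaled to library totals, a scaling that moved the median of all genes from 0.0587 to 0.357. With that scaling the counts at an unadjusted p under 0.05 also turned, to 6 at night and 4 by day.

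Of 8 glutathione S-transferases tested, 3 were higher by day at an unadjusted p under 0.05 (GstE9, GstE12 and GstD9) and none at night, and 7 of the 8 had negative differences (6 with scaling to library totals). With that scaling 1 of the 3 kept such a p. GstE12 was at 721 CPM by day and 501 CPM at night on average. Of 7 UDP-glycosyltransferases only Ugt35B1 had an unadjusted p under 0.05, a smaller share than among all named genes, and the 7 had a median of -0.54, with 5 negative differences (4 with scaling to library totals and 6 with quantile normalization).

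Of 24 listed genes of the unfolded protein response, which keep folding in the endoplasmic reticulum in balance, 10 could be tested. All 10 had negative differences, from -0.61 to -0.09, as had 783 of the 1778 named genes. Scaled to library totals, 3 of the 10 turned positive and none had an unadjusted p under 0.05. The sensor kinase gene Ire1 (-0.61 ± 0.22, SE), meigo (-0.59 ± 0.18) and the disulfide isomerase gene ERp60 (-0.40 ± 0.18) had an unadjusted p under 0.05, and no member was called. That share, 30%, was near the 25.6% of named genes, and 10% had groups without overlap, against 14.45%. For meigo the groups did not overlap, at 18.6 ± 2.82 CPM by day and 12.4 ± 1.49 CPM at night (SD, n = 4 libraries each).

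Among lipid genes, 5 of 9 tested were higher by day at an unadjusted p under 0.05 and 2 at night. The acyltransferase gene mdy, which makes triglyceride, averaged 28.8 CPM by day and 15.4 CPM at night, without overlap (-0.90 ± 0.20, SE, edgeR adjusted p = 0.196). The acyl-CoA synthetase gene bgm and the lipid droplet gene Lsd-1 had -0.84 ± 0.25 and -0.79 ± 0.31, SREBP had -0.41 ± 0.16 and the lipocalin gene GLaz -0.35 ± 0.16. The lipase gene bmm (0.70 ± 0.28) and the transporter gene Fatp3 (0.45 ± 0.20) were higher at night. With scaling to library totals no lipid gene kept such a p on the day side.

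Of 21 listed genes of insulin and TOR signalling only 2 could be tested, and both were higher by day without overlap. Thor, the translation repressor 4E-BP, averaged 190 ± 29.5 CPM by day and 90.7 ± 31.8 CPM at night (SD, n = 4 libraries each; log2 difference -1.08 ± 0.29, SE, edgeR adjusted p = 0.267). Tor, the kinase that acts on it, had -0.44 ± 0.17. With scaling to library totals neither had an unadjusted p under 0.05. Testable genes came mostly from tables ordered by rhythm in these data, and the paper lists Thor among its cycling genes. The 2 genes thus do not stand for the pathway.

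None of 15 cytosolic ribosomal protein genes had an unadjusted p under 0.05, with a median of 0.03. Among 20 nuclear genes of oxidative phosphorylation 1 had (ND-75, 0.43 ± 0.17), with a median of 0.18. Scaling to library totals raised these medians to 0.247 and 0.46. The 3 proteasome genes tested had positive differences with a median of 0.26, and none had such a p. Of 4 translation factors 2 were higher by day at an unadjusted p under 0.05, eEF1delta (-0.47 ± 0.19) and eIF2beta (-0.42 ± 0.18), both with overlapping groups, and neither had such a p with scaling to library totals or with quantile normalization. The ribosomal and oxidative phosphorylation members beyond a log2 difference of 1 were the low-count genes RpL10Aa, UQCR-11L and COX6AL. RpL10Aa was at 0.0692 CPM by day, and its error of 2.06 exceeded its difference of 1.95.

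Among 3 tested genes listed under transmitter recycling in astrocytes, 1 was higher at night and 1 by day at an unadjusted p under 0.05. The first lost such a p with quantile normalization and the second with library totals. Gs1, a glutamine synthetase gene, had 0.73 ± 0.31, Eaat2, an amino acid transporter gene, -0.49 ± 0.16, and Gabat -0.36 ± 0.18, and none was called. Eaat2 was also the only tested gene on the list of ensheathing glia markers, so its difference need not be that of astrocytes. The levels of e did not overlap, at 29.0 to 42.5 CPM by day and 19.1 to 23.7 CPM at night (-0.66 ± 0.17, SE, edgeR adjusted p = 0.248). The 4 photoreceptor genes had no common direction, with 3 positive and 1 negative difference and a median of 0.25. Arr1, the photoreceptor arrestin, was lower at night without overlap (-0.66 ± 0.20, SE, edgeR adjusted p = 0.322), whereas the rhodopsin gene Rh6 had 0.50 ± 0.31. With scaling to library totals neither e nor Arr1, at -0.35 and -0.36, had an unadjusted p under 0.05, and 1 photoreceptor gene had one on the night side.

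Single members of other lists also lay on the day side without overlap and without a call. Chd64, an actin-binding protein of the calponin family, averaged 198 CPM by day and 117 CPM at night (-0.76 ± 0.17, SE). Gbp2, a growth-blocking peptide that acts as a cytokine, had -0.62 ± 0.19, and Smg6, the nuclease of nonsense-mediated decay, had -0.42 ± 0.16. Of the enzymes that break down tyrosine, Hpd had -0.74 ± 0.22 without overlap and Faa had 0.57 ± 0.22 with overlapping groups, so they differed in sign. With scaling to library totals none of Chd64, Gbp2, Smg6 and Hpd had an unadjusted p under 0.05, and the difference of Smg6 shrank to -0.11.

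**Figure D5:**
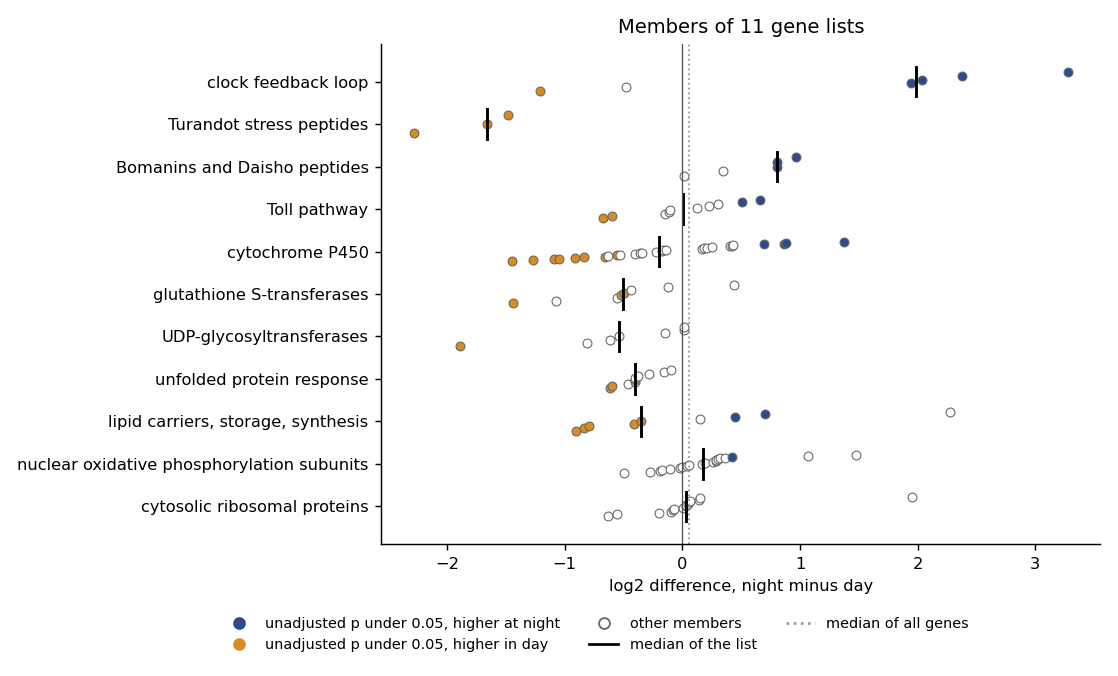
Night-minus-day log2 difference of each tested member (points) of 11 gene lists, with the list's median as a black bar and the median of all genes as a dotted line. Filled points had an unadjusted p under 0.05, blue at night and orange by day, and the Turandot points all lie below -1.4.

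Among the 8 libraries, a separate set of genes was higher in those of 40 h. In 385 genes both 40 h libraries were over 4-fold above each of the other 6, and 185 of these were among the 642 genes with an unadjusted p under 0.05 on the night side (28.8%). Of the 385, 142 were among the 558 genes (5.94%) whose difference varied between days at an unadjusted p under 0.05, while edgeR called no gene for such a variation (0%) and DESeq2 called 61. Both overlaps follow in part from the choice of the 385, which was made on these same libraries for high values at 40 h. Transcripts known from testis and male accessory gland moved with this set. The 18 of 61 such genes that could be tested, a list written after these values were seen, summed to 303 and 188 CPM in the 40 h libraries and 2.12 and 7.36 CPM in the 16 h libraries. By day they summed to 51.5 CPM in the 4 h library of replicate 1 and 3.11 to 4.01 CPM in the other 3, and in the 16 libraries not compared to between 1.54 and 1050 CPM, with a median of 458 CPM. Of those 16, 11 lay above every day library, so high sums were not particular to 40 h. None of the 15 leading named genes of either direction belonged to the 385, of which only 43 had a symbol. This absence says little, because most of that set could not be named. Its genes also differ over 4-fold within the night group, which works against a small p. Leaving out both 40 h libraries, a choice made after seeing the data, raised the number of calls from 2 to 105 with per and CG42329 among them. How far male tissue accounts for the night side of the comparison was not tested.

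Between the biological replicates no gene differed in its night-minus-day change at the threshold in edgeR (0%), 4 did in DESeq2, and 332 had an unadjusted p under 0.05 in edgeR (3.53%). For per the log2 difference was 2.31 in replicate 1 and 1.56 in replicate 2, and for CG42329 it was -4.08 and -3.43. In replicate 1 the library letters in the titles follow the groups, with both day libraries under 1 letter and the night libraries under others, so a letter effect and the time of day cannot be told apart there.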

How the data were processed

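The authors sequenced 24 TRAP libraries, each as 2 technical data sets of single-end reads. They trimmed reads with FastX, aligned them to Release 6 (BDGP6) with TopHat2 2.0.9, used SAMtools 0.1.19, and counted reads per gene with HTSeq 0.6.1. The deposited values are raw counts per gene for each of the 48 data sets, neither filtered nor normalized. The strand setting and counting mode are not given in the sources used here, so reads of overlapping genes may be mixed. Tallies that name no gene were left out. In the compared libraries of replicate 1, non-unique alignments made up 26.8% to 30.9% of all tallies, except at 16 h, with 9.47%. In those of replicate 2 they made up 4.03% to 7.33%, except at 28 h, with 47.0%. PCR duplicates carry no molecular identifiers.

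Data sets 1 and 2 (replicate 1) and 3 and 4 (replicate 2) were summed per library, grouped by hour in the titles. Genes with a mean of at least 20 counts over 24 libraries entered edgeR 4.0.16 (R 4.3.3): TMM, estimateDisp, glmQLFit and glmQLFTest, with biological replicate as block. SE is the difference over the root of F. Log2 differences by day or replicate are means of log2(CPM + 0.1). Replicate numbers come from the labels and mark independent crosses, per the study's methods, and p-values measure the spread among these libraries. Alternatives used limma 3.58.1 and DESeq2 1.42.0, other scalings, filters and libraries left out. The fitting functions were tested on simulated counts. Tables were made with pandas 2.3.3.

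Symbols came from the study's supplementary tables and RefSeq, for 1778 of 9392 tested genes. The comparison, the members and the gene lists were chosen with earlier results of these data known. Named were all clock loop genes and, among genes with a symbol, the 15 of smallest p in each direction. In each other list its called members or its 2 of highest mean count were named, except 19 that changed sign under an alternative. Other list members with an unadjusted p under 0.05 that the text names, and RpL10Aa, UQCR-11L and COX6AL, were chosen after their values were seen. Sequences were not used here.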

Additional observations from a re-analysis of the deposited data

Results flagged for a closer look

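Within each group of 4 libraries, 1 library lay far from the other 3 in 9 of 190 groups of values examined (91 genes and 4 library measures, each by day and at night, by Dixon's ratio), and chance gives about 1 in 20. The 10 genes of highest count held 49.6% of counts in the 28 h library of replicate 2, against 11.6% to 13.7% in the other day libraries. In that same library Cyp6t1 stood at 25.3 CPM, against 39.0 to 39.5 CPM in the other day libraries, and bmm at 53.5 CPM, against 24.3 to 27.1 CPM.

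Among the night libraries the 40 h library of replicate 1 had 45.5 CPM of Slob, a potassium channel regulator, against 71.7 to 76.5 CPM, and 195 CPM of Lsd-1, against 65.5 to 84.7 CPM. The 16 h library of replicate 1 had 43.4 CPM of Thor, against 100.4 to 110 CPM, and 19.1 CPM of e, against 23.1 to 23.7 CPM. Among the day libraries mdy was at 20.1 CPM in the 4 h library of replicate 1, against 31.0 to 32.9 CPM, and Jhe, a juvenile hormone esterase gene, at 1.21 CPM in the 4 h library of replicate 2, against 2.62 to 2.82 CPM. The causes were not tested.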

How the results depend on the processing

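The number of calls, 2 with the settings of the report, depended on nearly every choice, and the causes were not tested unless stated. It was 1 with no replicate block, 6 with library totals and no TMM, 0 with limma on quantile-normalized counts (878 genes at an unadjusted p under 0.05) and 311 with DESeq2. A minimum mean of 1 count gave 31 and of 100 counts 1. It was 9 with all 24 libraries in the fit, 7 with the day in DD in the block and 19 with a block by the spelling of library names. Data sets 1 and 3 alone gave 0 (622 at an unadjusted p under 0.05, edgeR) and data sets 2 and 4 alone gave 4. Leaving out 1 library gave 0 to 30, the most without the 40 h library of replicate 1. It was 1 without both 28 h libraries (tim), 26 with day 1 only, 636 with day 2 only, of which 579 were higher at night, and 0 with either biological replicate alone (429 and 993 at an unadjusted p under 0.05). Chosen after seeing the data, leaving out both 40 h libraries gave 105, and leaving out the 28 h library of replicate 2 and the 16 h library of replicate 1 gave 1. DESeq2 called 31 genes in the libraries of other hours, 61 between the days and 4 between the replicates, where edgeR called 0.

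Under the 28 alternatives 19 list genes, all with an unadjusted p of at least 0.193 and a log2 difference of at most 0.49 in size, changed sign and are not described singly. The 91 genes traced are those left after these were set aside, so for the list genes among them an unchanged sign follows from that choice. The log2 difference of per lay between 1.58 and 2.26 and that of CG42329 between -4.57 and -3.39, with adjusted p up to 0.319 and 0.639. The library of lowest depth held 6371034 counts, and how far depth limits the genes of low count was not tested.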
